A study of Bos taurus with 8 samples.

Results

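Zinc finger genes named ZNF and a number were examined in peripheral blood mononuclear cells (PBMC), the lymphocytes and monocytes of blood, of cows in 3 groups. The groups were lame crossbred cows, normal crossbred cows and normal Tharparkar cows, the last an Indian zebu breed. A member was a gene with a RefSeq symbol of ZNF and a number that had a probe well above background, as flagged by the scanner software, on every array of at least 1 group, so members were chosen by these background flags. Probes that the software marked as outliers on an array were not used, and ZNF655, whose 1 probe was well above background on all 8 arrays, was left out for that mark. Of 280 such genes in the RefSeq table, 150 had a probe on the array, and 117 of these were members, out of 15127 genes measured. Of the 117, 98 were well above background on all 8 arrays and 19 on some arrays only. The family's symbols follow a naming scheme and not a single function.

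Cy3-labelled total RNA was read on 1-colour Agilent bovine arrays, with 4 arrays for lame crossbred cows and 2 for either kind of normal cow. The labels name condition and breed only, so age, the cause or stage of lameness, the make-up of the crosses and any pooling of animals are not given in the sources used here. Duplicates are technical, per the labels' protocols, and by their correlations the arrays pair into 4 RNA samples: R1 and R2 of the lame group and 1 sample for each normal group. In the following n counts arrays, so p-values reflect array-to-array spread only and understate the uncertainty between cows.

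ZNF genes encode proteins that carry C2H2 zinc fingers, small folds in which paired cysteines and histidines hold a zinc ion and successive fingers read successive short stretches of DNA. Many also carry a KRAB domain, which recruits the corepressor TRIM28; TRIM28 in turn brings the histone H3 lysine 9 methyltransferase SETDB1 and heterochromatin proteins, and this machinery is best known for silencing transposable elements. Members without KRAB act as promoter-binding activators, partners of chromatin complexes, RNA-binding proteins or ribosome assembly factors. In blood cells the family supplies regulators of lymphocyte development and of cytokine signalling, and in mammals many of its genes lie in clusters that expanded by duplication.

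The 8 arrays had between 52.8% and 61.4% of probes well above background, apart from lame R2_2 with 70.9%, which was also the brightest (median raw signal 192.5, where the other 7 ranged over 74 to 102). Levels are given on the log2 scale after each array's processed signals were set relative to their 75th percentile, so a level of 0 marks that percentile, and levels of different probes are not set against each other. Of 22 T cell, 10 B cell and 12 monocyte markers listed, 20, 5 and 11 were measured, which means that a probe passed the background rule. Of those measured, 19, 5 and 11 were well above background on all 8 arrays, the exception being CD28 with 3 arrays. The rule itself favours such shares, so they are no test of the cell fraction. Some marker lists moved with the groups. Summed over its members, in multiples of the array's 75th percentile signal, the level of the 20 T cell markers was 68.7 to 75.3 on lame arrays, 113.1 to 116.0 on normal crossbred arrays and 59.1 to 60.0 on Tharparkar arrays, and that of the 12 NK and cytotoxic markers was 47.3 to 92.1, 147.1 to 159.7 and 62.2 to 67.0 in the same order of groups. The 14 measured granulocyte markers summed to 155.2 to 202.6 on lame arrays, 231.8 to 244.4 on normal crossbred arrays and 255.4 to 266.0 on Tharparkar arrays, and none of their markers read 0. Most of each granulocyte sum came from S100A8 and S100A12, while the median log2 difference over the 9 granulocyte markers well above background on all 8 arrays was -1.69 in lame minus normal crossbred and -1.92 in lame minus Tharparkar arrays. The 4 platelet markers summed to 16.5 to 18.6 on lame arrays, 13.8 to 14.7 on normal crossbred arrays and 9.09 to 9.77 on Tharparkar arrays, and the 5 erythroid markers to 12.2 to 21.7, 7.44 to 8.56 and 6.80 to 7.26 in the same order. Of the NK and granulocyte lists, 3 of 12 and 5 of 14 markers were not well above background on every array.

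The median difference of the ZNF genes lay near 0 in each comparison, while single genes among the 98 well above background on all arrays differed by up to 4.83-fold. In lame against normal crossbred arrays, 1 of the 98 members was called higher and 2 lower at an adjusted p under 0.05, or 3.06% of them, where 9.35% of the 12950 genes well above background on all 8 arrays were called (3.07% higher and 6.29% lower). In lame against Tharparkar arrays 14 members were higher and 6 lower, 20.4% where 22.5% of all such genes were called (11.3% higher and 11.2% lower), and in normal crossbred against Tharparkar arrays 16 were higher and 3 lower, 19.4% where 17.8% were called (10.9% higher and 6.86% lower). The shares for the comparisons with Tharparkar were near the background, and that for lame against normal crossbred arrays was under it. The balance of directions among the called members was 14 to 6 and 16 to 3, where the called genes of the whole array split 1469 to 1450 in lame against Tharparkar arrays and 1417 to 888 in normal crossbred against Tharparkar arrays. The second split was 14 to 7 under normexp background correction with quantile normalization, and under median scaling 1 member was called in each comparison, lower in lame against normal crossbred and in lame against Tharparkar arrays and higher in normal crossbred against Tharparkar arrays.

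The median log2 difference of the 98 members was 0.03 in lame minus normal crossbred arrays (all 12950 genes, -0.04), 0.07 in lame minus Tharparkar arrays (all genes, -0.05) and 0.05 in normal crossbred minus Tharparkar arrays (all genes, -0.02). The median level of the members on an array is another measure. It was -0.17 to 0.04 on lame, -0.04 and 0.02 on normal crossbred and -0.38 and -0.51 on Tharparkar arrays. Its pooled SD between arrays of a group was 0.09. For all 12950 genes this level was 0.63 to 0.85, 0.87 and 0.86, and 0.79 and 0.78 in the same order. The signs of the first 2 median differences depend on the scaling, and the third was positive under each scaling. The first was -0.03 under quantile normalization. Under median scaling the median differences were -0.48, -0.49 and 0.01, where those of all genes kept moved to -0.55, -0.57 and -0.03. The quartiles of the members ran from -0.26 to 0.26, from -0.28 to 0.50 and from -0.27 to 0.51 in these comparisons, beside -0.33 to 0.25, -0.41 to 0.38 and -0.39 to 0.42 for all genes. The 3 comparisons share arrays, so their values are given side by side and are not independent of each other. In blood RNA, fewer cells of a type and less RNA per cell cannot be told apart.

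**Figure D1:**
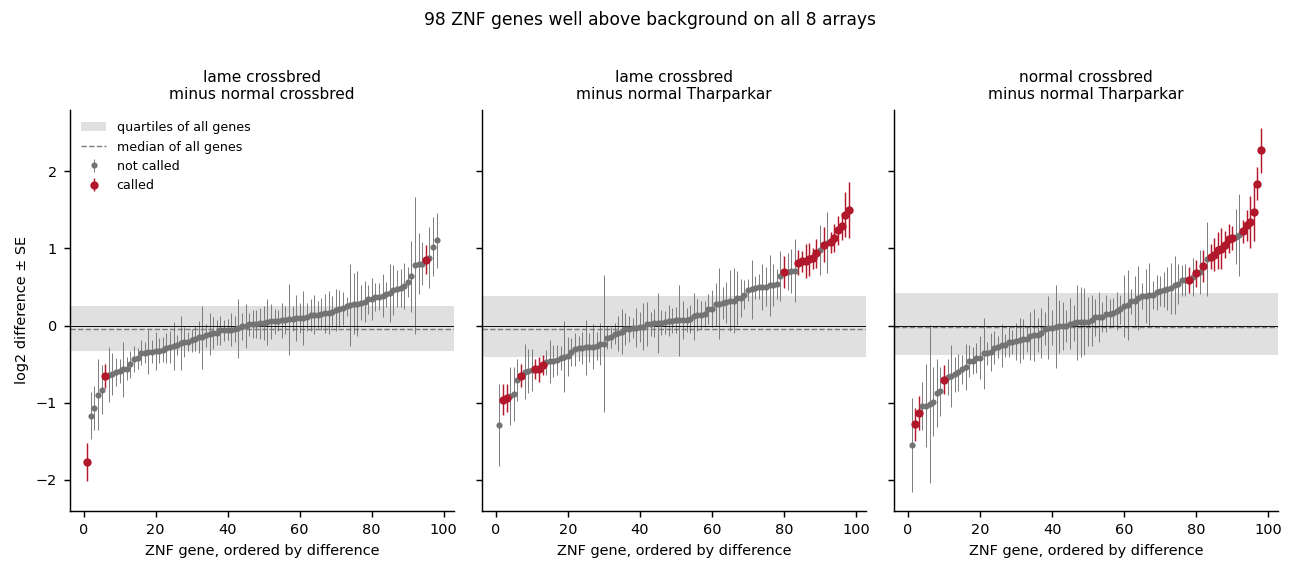
Log2 difference ± SE of each of the 98 ZNF genes, ordered by size, in lame minus normal crossbred, lame minus Tharparkar and normal crossbred minus Tharparkar arrays; the grey band spans the quartiles of all 12950 genes and the dashed line is their median. Called members, in red, are 3 in the first panel, 20 in the second and 19 in the third, and most members lie inside or near the grey band.

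The comparison of lame with normal crossbred arrays asks which of these genes differ with lameness within crossbred cows. Among the 98 members ZNF711 had the largest difference: its log2 level was -2.69, -2.56, -2.04 and -1.87 on the lame arrays, against -0.49 and -0.55 on the normal crossbred arrays. Every lame array lay below both normal crossbred arrays, by 3.40-fold on average (log2 difference -1.77 ± 0.25 SE, adjusted p = 0.00704). ZNF711 is an X-linked relative of ZFX that binds CpG island promoters, and in humans its loss causes intellectual disability. On the Tharparkar arrays it was at -2.83 and -2.76, so the normal crossbred arrays stood apart from both other groups.

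ZNF608 showed the opposite order, with log2 levels of -2.28, -2.22, -2.64 and -2.72 on lame arrays against -3.37 and -3.26 on normal crossbred arrays, a difference of 0.85 ± 0.19 (adjusted p = 0.0338). Its mouse counterpart has been reported to repress the recombinase genes Rag1 and Rag2 in developing T cells. ZNF184, a KRAB zinc finger protein, was at -0.02, 0.13, -0.03 and 0.27 on lame arrays against 0.64 and 0.84 on normal crossbred arrays, a difference of -0.65 ± 0.15 (adjusted p = 0.0414). Neither gene had overlapping groups, and each of the 3 differences exceeded the gap between lame R1 and lame R2, as did those of 35 of the 98 members. The fit counts that gap as spread, so being called favours this and it is no separate support. The groups of a further 33 members did not overlap either but missed the threshold, 36 of 98 in all (14 higher and 22 lower), where 38.8% of all genes did not overlap (15.0% higher and 23.8% lower). Among members that were not called, differences ran from -1.17 for ZNF200 to 1.105 for ZNF205. The 3 calls rest on few arrays: without normal crossbred R1, or without normal crossbred R2, no member was called (7 and 8 members had an unadjusted p under 0.05 in limma), without lame R1_1 or either Tharparkar array 1 was, and without lame R2_2 5 were. Among markers well above background on all 8 arrays, 6 of 19 T cell, 5 of 9 NK and cytotoxic and 6 of 9 granulocyte markers were called lower in the same comparison and none higher, 4 of 11 monocyte markers were higher and 1 lower, and 1 of 5 erythroid markers was higher; their part in the ZNF differences was not tested. With duplicate arrays averaged, no member was called in any of the 3 comparisons, and 1, 2 and 3 had an unadjusted p under 0.05 in lame against normal crossbred, lame against Tharparkar and normal crossbred against Tharparkar arrays.

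**Figure D2:**
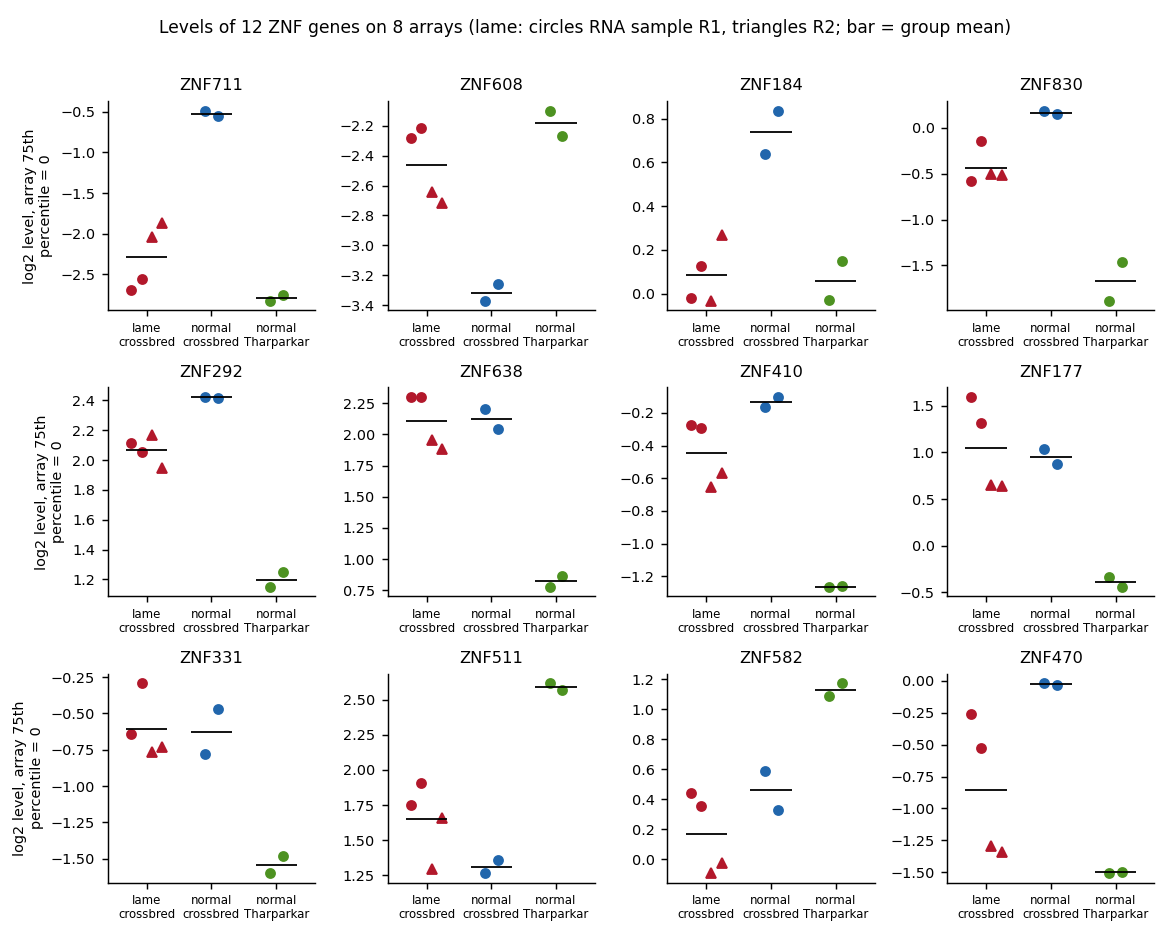
Log2 levels of 12 called ZNF genes on each of the 8 arrays, with lame crossbred at the left, normal crossbred in the middle and normal Tharparkar at the right; circles and triangles of the lame group are RNA samples R1 and R2, and bars are group means. ZNF711 is high on the normal crossbred arrays alone of the 3 groups, whereas ZNF292, ZNF638, ZNF410, ZNF177, ZNF331 and ZNF830 are lowest on both Tharparkar arrays and ZNF511 and ZNF582 highest there.

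In lame against Tharparkar arrays the 14 members that were higher included KRAB zinc finger genes and genes with roles in chromatin and RNA. The largest difference among the 98 was that of ZNF205, a KRAB gene, at -1.34, -1.30, -1.95 and -1.35 on lame arrays against -3.61 and -2.35 on Tharparkar arrays (log2 difference 1.50 ± 0.36, adjusted p = 0.0236); its Tharparkar duplicates lay 1.26 apart, the widest such gap among the 98 members. ZNF177, also a KRAB gene, was at 1.59, 1.32, 0.65 and 0.64 on lame arrays against -0.34 and -0.44 on Tharparkar arrays, a difference of 1.44 ± 0.30 (adjusted p = 0.0139). For both genes the lowest lame array lay above the higher Tharparkar array.

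ZNF638 encodes a nuclear protein that in human cells brings the HUSH silencing complex to unintegrated retroviral DNA. Its levels were 2.30, 2.29, 1.96 and 1.88 on lame arrays against 0.78 and 0.87 on Tharparkar arrays. That is a 2.44-fold difference on the probe that represents the gene (1.29 ± 0.17, adjusted p = 0.00296), and its other probes gave less. ZNF830, a splicing-associated factor, was at -0.58, -0.15, -0.50 and -0.52 on lame arrays against -1.88 and -1.46 on Tharparkar arrays (1.24 ± 0.19, adjusted p = 0.00444). The KRAB gene ZNF12 differed by 1.14 ± 0.18 (adjusted p = 0.00528), with 1.95 to 2.46 on lame arrays against 0.97 and 1.12 on Tharparkar arrays. No lame array overlapped a Tharparkar array for any of these genes.

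The other named members that were higher were ZNF576 (1.08 ± 0.14), the neighbouring KRAB genes ZNF226 (1.05 ± 0.23) and ZNF227 (0.86 ± 0.21), ZNF331 (0.93 ± 0.18), a KRAB gene that is imprinted in humans, and ZNF292 (0.87 ± 0.13), a large factor recurrently mutated in human chronic lymphocytic leukaemia. The adjusted p of these genes ran from 0.0022 for ZNF576 to 0.0273 for ZNF227. ZNF362, ZNF180, ZNF410 and ZNF22 were higher as well, by 0.69 to 0.84. Each of the 20 called members kept its sign on both slides, which is no separate support, because a call needs a small spread between the same arrays.

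Another 6 members were lower in lame than in Tharparkar arrays. ZNF582, a KRAB gene whose promoter is methylated in human cervical cancer, was at 0.44, 0.35, -0.09 and -0.03 on lame arrays against 1.09 and 1.17 on Tharparkar arrays, a difference of -0.96 ± 0.20 (adjusted p = 0.0143). ZNF511 was at 1.75, 1.90, 1.30 and 1.66 on lame arrays against 2.62 and 2.57 on Tharparkar arrays (-0.94 ± 0.19, adjusted p = 0.0124). The remaining 4 were ZNF621 (-0.65), ZNF512 (-0.57), the nucleolar protein gene ZNF330 (-0.57) and ZNF789 (-0.51), with adjusted p from 0.0191 to 0.0457. In this comparison 45 of 98 members had groups that did not overlap, 26 higher and 19 lower, where 50.1% of all genes did not (23.3% higher and 26.8% lower). The count of 20 fell to 2 without Tharparkar R1, to 7 without Tharparkar R2 and to 13 without either normal crossbred array. Among markers well above background on all 8 arrays, 5 of 9 granulocyte markers were lower and none higher, and 3 of 4 platelet markers (median 1.55), 2 of 5 erythroid markers and 1 of 9 NK and cytotoxic markers were higher and none lower. In the same comparison 3 of 11 monocyte markers were higher and 1 lower, 2 of 19 T cell markers higher and 1 lower, and 1 of 5 B cell markers lower; the part of these markers was not tested.

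Normal crossbred against normal Tharparkar arrays compares breeds without lameness, with 1 RNA sample of each breed. Among the 98, ZNF711 again had the largest difference, with -0.49 and -0.55 on normal crossbred arrays against -2.83 and -2.76 on Tharparkar arrays, 4.83-fold higher (2.27 ± 0.29, adjusted p = 0.00283). ZNF830 was at 0.18 and 0.15 on normal crossbred arrays against -1.88 and -1.46 on Tharparkar arrays, 3.58-fold higher (1.84 ± 0.22, adjusted p = 0.00208). The KRAB gene ZNF470 was at -0.02 and -0.03 on normal crossbred arrays against -1.50 on both Tharparkar arrays (1.47 ± 0.37, adjusted p = 0.0335). For all 3 genes the duplicates lay closer together than the groups, which being called favours.

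Further members with a known role or a KRAB domain were higher by more than 1 on the log2 scale. ZNF177 was at 1.03 and 0.87 on normal crossbred arrays and ZNF638 at 2.20 and 2.04, which set them 1.34 ± 0.34 (adjusted p = 0.034) and 1.30 ± 0.20 (adjusted p = 0.0058) above the Tharparkar arrays given before. ZNF292 was at 2.42 on both normal crossbred arrays against 1.15 and 1.25 on Tharparkar arrays (1.22 ± 0.15, adjusted p = 0.00258). ZNF410, which activates the chromatin remodeller gene CHD4 through clustered binding sites, was at -0.16 and -0.10 on normal crossbred arrays against -1.26 on both Tharparkar arrays (1.13 ± 0.19, adjusted p = 0.00698). CHD4 itself was not called, with a difference of -0.29 ± 0.30 here (adjusted p = 0.561) and of -0.57 ± 0.26 in lame minus Tharparkar arrays (adjusted p = 0.159).

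ZNF576 (1.14), ZNF197 (1.05), a gene with SCAN and KRAB domains, and ZNF226 (1.00) completed the named members that were higher, and ZNF22, ZNF331, ZNF180, ZNF12, ZNF184 and ZNF32 were higher by 0.59 to 0.98. The 3 lower members were ZNF511, at 1.27 and 1.36 on normal crossbred arrays (-1.28 ± 0.22, adjusted p = 0.00775), ZNF608, at -3.37 and -3.26 against -2.10 and -2.27 on Tharparkar arrays (-1.13 ± 0.22, adjusted p = 0.0127), and the KRAB gene ZNF133, at 2.42 and 2.41 against 3.15 and 3.07 (-0.70 ± 0.19, adjusted p = 0.0382). Each of the 19 differences was larger than the gap between lame R1 and lame R2 for the same gene, as were those of 49 of the 98 members. The fit counts that gap as spread, so being called favours this too. With 2 arrays against 2 the groups of 75 of the 98 members did not overlap (41 higher and 34 lower), where 82.1% of all genes did not (40.0% higher and 42.1% lower), so a lack of overlap carries little here. The count of 19 fell to 4 without normal crossbred R1, 5 without normal crossbred R2, 4 without Tharparkar R1 and 6 without Tharparkar R2. In the same comparison 13 of 19 T cell markers were higher and 1 lower (median 0.98), 5 of 9 NK and cytotoxic and 2 of 4 platelet markers were higher, 2 of 11 monocyte markers and 1 of 5 erythroid markers were lower, and 1 of 9 granulocyte markers was higher and 1 lower; their part in the ZNF differences was not tested.

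Several members were measured by more than 1 probe, which gives a check within the array. Only probes well above background on all 8 arrays were set side by side, because a probe kept through 1 bright group must tend towards that group. Of the 19 members called in normal crossbred against Tharparkar arrays 9 had several such probes, and in 6 of these every probe had the same sign; in 2 every probe reached at least 50% of the called difference. The probes of ZNF292 were higher by 0.47 to 1.41, and the 3 probes of ZNF331 by 0.77, 0.80 and 0.92. Probes of 3 genes disagreed in sign: ZNF576 (-0.22 on the lowest probe), ZNF22 (-0.05) and ZNF133 (0.41 on the highest). The other probes of ZNF638 gave 0.17 and 0.60 beside 1.30, so its size depends on the probe read.

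In lame against Tharparkar arrays 9 of the 20 called members had several such probes, and in 6 every probe had the same sign. In 3 every probe reached at least 50% of the called difference. Probes disagreed in sign for ZNF576 (-0.28 on the lowest probe), ZNF362 (-0.34 beside 0.84) and ZNF512. ZNF512 had 0.85 on its other probe beside -0.57, and its mean over probes was 0.14. The other probes of ZNF638 gave 0.11 and 0.34 beside 1.29, and those of ZNF177 gave 0.50 and 0.49 beside 1.44. In lame against normal crossbred arrays ZNF184 alone of the 3 called members had several such probes, which gave -0.45, -0.24 and 0.05 beside -0.65. Those of ZNF711 and ZNF608 were single, so neither call has a second probe measured in every group. Over the whole family, 39 of the 98 members had several such probes, and these had 1 sign in 18 genes in lame against normal crossbred, 22 in lame against Tharparkar and 22 in normal crossbred against Tharparkar arrays.

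**Figure D3:**
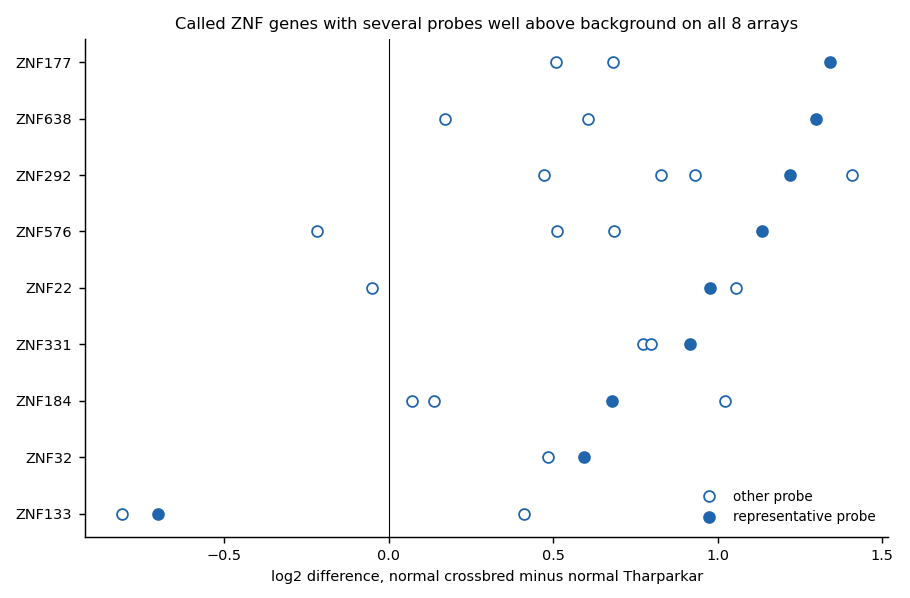
Log2 difference, normal crossbred minus Tharparkar, of the probes well above background on all 8 arrays, for the 9 called ZNF genes that had several; filled points are the probe that represents the gene. The probes of ZNF292 all lie above 0, between 0.47 and 1.41, while ZNF576, ZNF22 and ZNF133 each have a probe on the other side of 0.

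The 19 members above background on some arrays only are described apart, because the rule that kept them uses the group in which they are bright. Of the 19, 6 were well above background on all 4 lame arrays, 17 on both normal crossbred arrays and 5 on both Tharparkar arrays, and 10 were so on neither Tharparkar array. Their values are a description, with no test where a group is dim. The log2 level of ZNF304 was 0.95, 1.02, 0.38 and 0.55 on lame arrays and 1.02 and 1.06 on normal crossbred arrays, against -6.46 and -5.79 on Tharparkar arrays, where its 1 probe was not well above background.

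Where a probe is not well above background, a fold is given as a lower bound: the brighter group's mean is divided by a floor, which on each array is the probe's own signal or, if larger, the dimmest signal that still counted as well above background there. On its only probe, ZNF304 was at least 32.6-fold higher in lame than in Tharparkar arrays and at least 40.5-fold higher in normal crossbred than in Tharparkar arrays. No other probe of the gene was on the array, so these bounds hold for the probe and were not checked for the gene. ZNF304 is a KRAB zinc finger protein that in human colorectal cancer cells recruits a silencing complex to tumour suppressor genes. The next largest bounds with Tharparkar arrays the lower were 1.79-fold in lame and 2.22-fold in normal crossbred arrays.

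ZNF423, a partner of the B cell factor EBF1 that is also a regulator of fat cell precursors, ran the other way. Its kept probe was at -6.69, -7.05, -6.72 and -5.50 on lame arrays and -3.55 and -3.51 on normal crossbred arrays, against -0.72 and -0.76 on Tharparkar arrays. The 3 groups did not overlap, and no lame array was well above background. The probe was at least 12.2-fold lower in lame than in Tharparkar arrays, at least 1.77-fold lower in lame than in normal crossbred arrays and 6.90-fold lower in normal crossbred than in Tharparkar arrays, where both groups were well above background (adjusted p = 0.0069). Its 3 other probes were not kept, and on 1 lame array at least 1 of them was well above background, so these bounds hold for the probe and not for the gene.

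Smaller bounds were found for other genes. ZNF667 was at least 1.79-fold higher in lame than in Tharparkar arrays, and ZNF451, a ligase for the small modifier SUMO, at least 1.37-fold. In normal crossbred against Tharparkar arrays ZNF502 was at least 2.22-fold higher and the developmental factor ZNF462 at least 2.12-fold. ZNF524 was the only member in this class bounded as lower in normal crossbred than in Tharparkar arrays, by at least 2.36-fold.

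**Figure D4:**
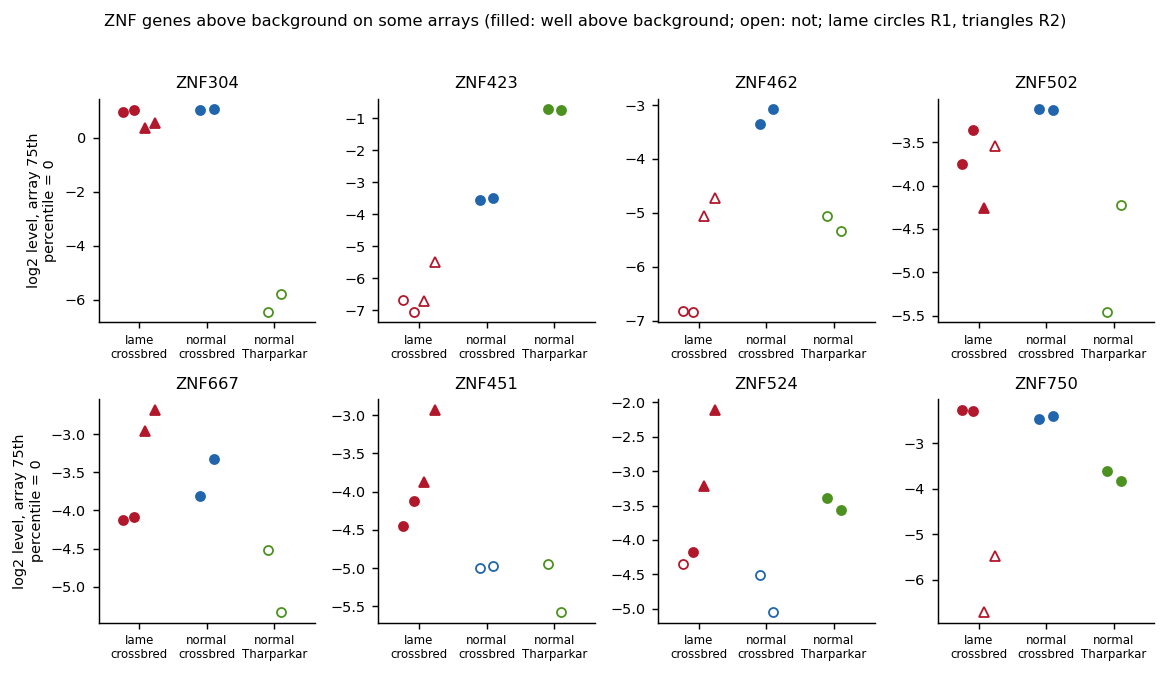
Log2 levels of 8 ZNF genes that were above background on some arrays only, with lame crossbred at the left, normal crossbred in the middle and Tharparkar at the right; filled points are well above background, open points are not, and lame circles and triangles are RNA samples R1 and R2. ZNF304 lies between 0.38 and 1.06 on the crossbred arrays and at -6.46 and -5.79 on Tharparkar arrays, and ZNF423 runs the other way.

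Members were then read by known role, from 3 lists, with counts and medians over those well above background on all 8 arrays. Of 21 genes that act on chromatin or promoters 12 were measured, 11 of them on all 8 arrays. ZNF292 and ZNF410 were higher than in Tharparkar arrays in both crossbred groups, and the other 9 were not called in any comparison (between lame and normal crossbred arrays 3 of the 11 had an unadjusted p under 0.05 in limma). The median of the 11 was -0.17 in lame minus normal crossbred, 0.07 in lame minus Tharparkar and 0.21 in normal crossbred minus Tharparkar arrays. The kept probe of ZNF462 was well above background on the normal crossbred arrays alone and was at least 2.19-fold lower in lame than in normal crossbred arrays, which describes the group it was kept for. On 1 lame array another probe of ZNF462 was well above background, so this bound holds for the probe and not for the gene.

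Among those not called, ZNF274, which brings SETDB1 to the ends of other zinc finger genes, had a wide spread: -2.95, -3.36, -2.03 and -1.33 on lame arrays and -2.47 and -2.89 on normal crossbred arrays, against -1.13 on both Tharparkar arrays. Its difference from Tharparkar arrays was -1.29 ± 0.53 in lame arrays (adjusted p = 0.122) and -1.55 ± 0.61 in normal crossbred arrays (adjusted p = 0.123), and its lame RNA samples lay 1.48 apart. Its other probes well above background on all 8 arrays disagreed in sign. In the same order of comparisons 1 gave 0.61 and 0.17, and another gave -0.74 and -1.31. On the probe that represents the gene, the promoter activators ZNF143 and ZNF148 differed by 0.40 or less in each of the 3 comparisons. The same held for ZNF644, a partner of the methyltransferase EHMT2, and for ZNF384 and ZNF592. Other probes well above background on all 8 arrays differed by more for 4 of these genes. In normal crossbred minus Tharparkar arrays a probe of ZNF148 gave 0.72 and 1 of ZNF384 -1.23. In lame minus Tharparkar arrays a probe of ZNF644 gave 0.70 and 1 of ZNF592 -0.81. ZNF263 (0.58 in normal crossbred minus Tharparkar, adjusted p = 0.0801), ZNF24 (0.51 in lame minus normal crossbred, adjusted p = 0.335) and ZNF131 (-0.42 in lame minus normal crossbred, adjusted p = 0.103) were the furthest of the rest.

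Of 15 genes with roles in RNA, ribosomes, ubiquitin-like modifiers or the spindle 12 were measured, 11 of them on all 8 arrays (all but ZNF451). Of the 11, ZNF638 and ZNF830 were higher than in Tharparkar arrays in both crossbred groups, ZNF330 and ZNF512 were lower in lame than in Tharparkar arrays, and none was called between lame and normal crossbred arrays (2 of the 11 had an unadjusted p under 0.05 in limma). ZNF593, whose yeast counterpart acts in maturation of the large ribosomal subunit, was at 3.67, 3.58, 2.66 and 2.56 on lame arrays and 3.45 and 3.24 on normal crossbred arrays, against 4.04 and 3.97 on Tharparkar arrays. Its groups did not overlap with Tharparkar arrays, but the gap between the lame RNA samples was 1.01 and neither difference was called (-0.89 ± 0.35, adjusted p = 0.11, and -0.66 ± 0.41, adjusted p = 0.305). ZNF622, whose yeast counterpart acts in the same pathway, had differences of -0.45 (adjusted p = 0.139) and -0.63 (adjusted p = 0.095) in the same comparisons. The double-stranded RNA binder ZNF346 was 0.80 ± 0.28 higher on average in lame than in normal crossbred arrays, which missed the threshold (adjusted p = 0.125). The spindle factor ZNF207, the splicing and elongation factor ZNF326, ZNF277 and ZNF706 were not called in any comparison. Their differences ran from -0.04 to 0.50 on the probes that represent the genes. On their other probes well above background on all 8 arrays they ran from -0.53 (ZNF706) to 0.54 (ZNF207).

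Of 13 genes with roles in blood and immune cells 5 were measured, 3 of them on all 8 arrays. ZNF331 was higher than in Tharparkar arrays in both crossbred groups, at -0.64, -0.29, -0.77 and -0.73 on lame arrays and -0.78 and -0.47 on normal crossbred arrays against -1.60 and -1.48 on Tharparkar arrays. ZNF335, which is needed for thymocyte maturation in mice, was not called in any comparison, with 2.20 to 2.72 on lame arrays, 2.30 and 2.47 on normal crossbred arrays and 2.50 and 2.49 on Tharparkar arrays. ZNF341, which drives transcription of STAT3 in human cells, was at -3.98 and -4.40 on the lame R1 arrays and -2.06 and -1.05 on the lame R2 arrays, against -3.69 and -3.61 on normal crossbred and -2.55 and -2.72 on Tharparkar arrays. Its lame group spans both normal groups, so its group difference has no settled direction.

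ZNF750, a factor of epidermal differentiation, was at -2.26 and -2.29 on the lame R1 arrays but at -6.71 and -5.48, not well above background, on the lame R2 arrays, against -2.47 and -2.40 on normal crossbred and -3.60 and -3.83 on Tharparkar arrays. Genes of the 3 lists without a kept probe included ZNF366, ZNF395 and ZNF521.

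**Figure D5:**
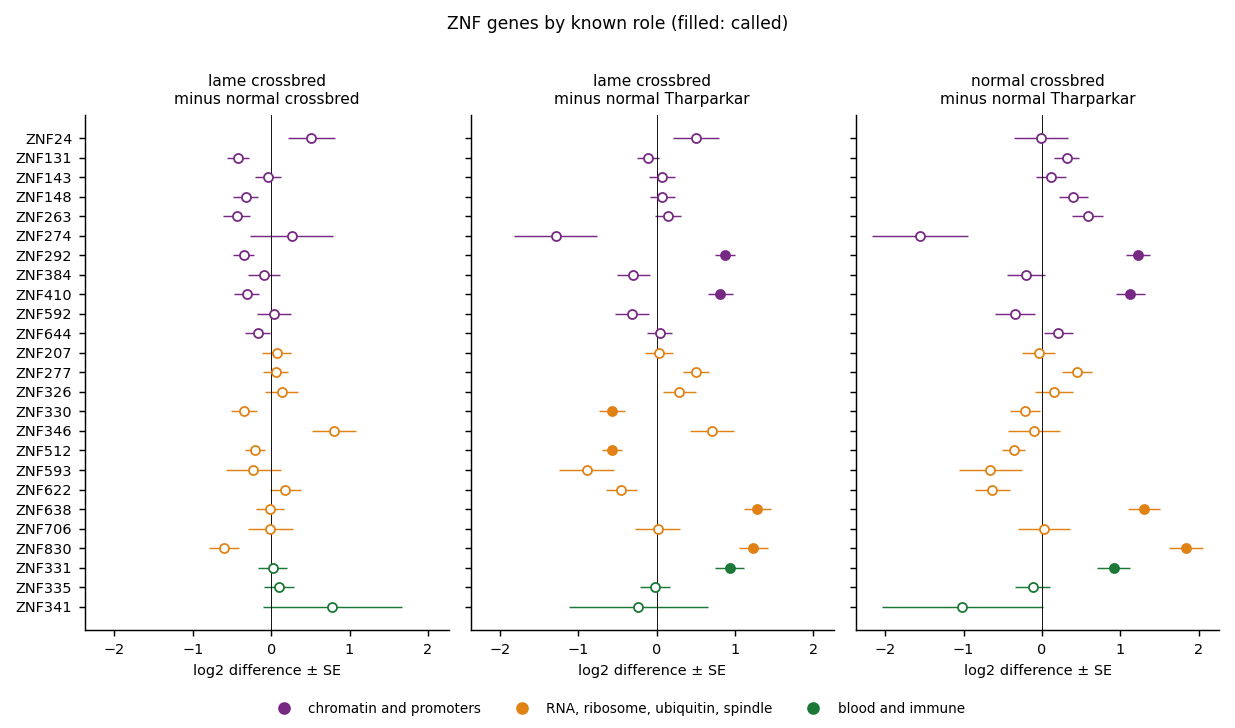
Log2 difference ± SE of the ZNF genes on the 3 role lists that were well above background on all 8 arrays, in lame minus normal crossbred, lame minus Tharparkar and normal crossbred minus Tharparkar arrays; filled points are called. No point is filled in the first panel, and ZNF292, ZNF410, ZNF638, ZNF830 and ZNF331 are filled to the right of 0 in both others.

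The partners through which KRAB zinc finger proteins silence chromatin were read from a list of 48 genes, 37 of them measured and 35 well above background on all 8 arrays. TRIM28 was not called in any comparison (-0.10, -0.65 and -0.55 in lame minus normal crossbred, lame minus Tharparkar and normal crossbred minus Tharparkar arrays), nor was SETDB1 (0.03, -0.28 and -0.31). ATF7IP, the SETDB1 cofactor, was higher than in Tharparkar arrays in both crossbred groups, by 1.02 ± 0.18 in lame arrays (adjusted p = 0.0079) and 0.92 ± 0.21 in normal crossbred arrays (adjusted p = 0.0222). The H3 lysine 9 methyltransferase EHMT2 was lower in both, with differences of -1.15 in lame minus Tharparkar (adjusted p = 0.0052) and -1.23 in normal crossbred minus Tharparkar arrays (adjusted p = 0.0081).

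In lame against Tharparkar arrays 2 of the 35 partners were higher and 5 lower, 20% where 22.5% of all genes well above background on all 8 arrays were called. Their median was -0.35 (all such genes, -0.05). ATF7IP and RESF1, a SETDB1-associated factor, were higher, and UHRF1 and EHMT2 had the largest differences of the lower ones. UHRF1, which couples DNA methylation to replication, was at 1.11, 0.76, 0.29 and 0.27 on lame arrays against 2.21 and 2.06 on Tharparkar arrays. In normal crossbred against Tharparkar arrays 2 were higher and 2 lower (MORC2 and EHMT2), 11.4% where 17.8% of all such genes were called. The median there was -0.18 (all such genes, -0.02). Between lame and normal crossbred arrays the DNA methyltransferase gene DNMT3A was the 1 called partner of the 35, lower in lame arrays (log2 difference -0.91, adjusted p = 0.0355), with 2.84, 2.87, 2.37 and 2.32 on lame arrays against 3.50 and 3.53 on normal crossbred arrays. That 1 call is 2.86% of the 35, where 9.35% of all such genes were called, and the median was -0.21 (all such genes, -0.04). Another DNA methyltransferase gene of the list, DNMT3B, was well above background on 6 arrays only and so is not among the 35. It lay the other way, at -3.45, -3.29, -3.07 and -2.78 on lame arrays against -5.65 and -4.72 on normal crossbred arrays.

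The 2 lame RNA samples differed from each other for many members. Over the 98 members the median of lame R1 minus lame R2 was 0.29 (all genes, 0.23), and the median size of the gap was 0.43 (all genes, 0.47). Both lame R1 arrays lay above both lame R2 arrays for 54 members and below them for 20, and 13 members had a gap of at least 1. These shares were not counted over all genes, so they are not read as a trait of the family. With 2 arrays against 2, 82.1% of all genes did not overlap between normal crossbred and Tharparkar arrays. The widest gaps between the lame RNA samples were those of ZNF341 (-2.64), ZNF274 (-1.48), ZNF613 (1.31) and ZNF574 (1.21). Between duplicate arrays of 1 RNA sample the median SD of a member was 0.09 to 0.12, but the duplicates of lame R2 were themselves far apart for ZNF341, at -2.06 and -1.05. Read against normal crossbred arrays, lame R1 had a family median of 0.11 and lame R2 one of -0.13, and read against Tharparkar arrays these were 0.18 and -0.084. The medians of all genes changed sign in the same way, with 0.06 and -0.19 against normal crossbred and 0.07 and -0.15 against Tharparkar arrays. Whether a sample stands for 1 cow is not given in the sources used here.

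In all, 6 pairs of members (12 genes) are next to each other among protein-coding genes of the RefSeq table (assembly ARS-UCD2.0, used for order only). ZNF226 and ZNF227 were both higher in lame than in Tharparkar arrays and differed by 1.00 and 0.63 in normal crossbred minus Tharparkar arrays, the first called and the second not (adjusted p = 0.119). ZNF582 and ZNF583 had differences of -0.96 and -0.35 in lame minus Tharparkar arrays, the first called. No pair had both genes called in lame against normal crossbred or in normal crossbred against Tharparkar arrays.

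At the edge of the background rule, the dimmest probes kept were those of ZNF555, ZNF462 and ZNF19, with mean processed signals of 10.7, 11.7 and 11.7, each well above background on both normal crossbred arrays. Among probes with no outlier mark, the brightest left out were those of ZNF771, ZNF445 and ZNF181, with 25.3, 20.6 and 19.7, each above background on 3 or 4 arrays of no complete group. ZNF445 and ZNF181 were members through another probe, as was ZNF771. A further 33 ZNF genes on the array had no kept probe.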

How the data were processed

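The authors deposited scanner output of 8 arrays made with Agilent Feature Extraction 12.0.3.1, per the file headers, whereas the submitters' processing notes name version 11.5.1.1. Its processed signal is a background-subtracted intensity, per the file headers. The authors also deposited a log2 table of the same arrays, used here only as an alternative. From the intensities, log2 values minus each array's 75th percentile were computed. Accessions on the array were matched to RefSeq symbols (27054 of 43653 probes to 1 gene). Control spots and 56 probes marked as outliers were left out, the background rule of the opening was applied to every probe, and the kept probe of highest mean stood for its gene, which left 15127 genes.

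The 3 groups were fitted together in limma 3.58.1 (R 4.3.3) with lmFit and eBayes, 2-sided, with Benjamini-Hochberg adjustment over all 15127 genes and a threshold of 0.05. The steps were tested on simulated data. The number of arrays, 4, 2 and 2 for lame, normal crossbred and normal Tharparkar, limits the precision. Members and lists were chosen with earlier results of these data known. Named were, per comparison, up to 10 called members in each direction whose groups do not overlap, up to 3 bounds in each direction, all measured genes of the role lists, up to 3 called KRAB partners in each direction (given where well above background on all 8 arrays), and 3 probes on each side of the background rule. TRIM28, SETDB1, CHD4, DNMT3B, neighbouring pairs, ZNF200, ZNF205 and the widest gaps between lame RNA samples were singled out after their values were seen, as were the called members past the first 10.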

Additional observations from a re-analysis of the deposited data

Results flagged for a closer look

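ZNF205 was the only named member with an array far from the others of its group. Among the 4 lame arrays, R2_1 was at -1.95 while the others lay between -1.35 and -1.30, a gap that is 0.933 of the group's range and is past Dixon's critical value. The duplicate array of the same RNA sample, lame R2_2, was among the others. Chance gives such a gap in about 1 of 20 groups of independent values, and 49 genes were named. The 4 lame arrays are duplicates of 2 RNA samples, so that rate need not hold for them.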

How the results depend on the processing

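Both the number of called members and the medians depended on the setting, and the cause was not tested. In lame against normal crossbred arrays, with 3 called, the count was 7 with normexp and quantile normalization (an alternative chosen after seeing the data), 6 with quantile normalization, 1 with median scaling, 5 over genes on all 8 arrays, 1 with no filter, 1 with probes of a gene averaged, 0 with duplicates averaged (1 at an unadjusted p under 0.05 in limma), 45 with array weights, 39 with lame R1 alone, 37 with lame R2 alone and 7 with symbols that end in a letter. In lame against Tharparkar arrays, with 20 called, it was 1 with median scaling, 6 with no filter, 0 with duplicates averaged (2 unadjusted), 53 with array weights, 60 with lame R1 alone and 52 with lame R2 alone. In normal crossbred against Tharparkar arrays, with 19 called, it was 1 with median scaling, 7 with no filter, 0 with duplicates averaged (3 unadjusted) and 61 with array weights. Leaving out 1 array gave 0 to 5, 2 to 25 and 4 to 24 called in these comparisons. With slide as a replicate block the counts were 2, 17 and 13. The calls over all 15127 genes, 1455, 3528 and 2831 in these comparisons, also rose with array weights, to 7306, 8471 and 9434. In the first 2 comparisons they were 7162 and 8378 with lame R1 alone and 6993 and 8785 with lame R2 alone. Array weights were 0.11 and 0.08 for the lame R2 arrays and 1.42 to 2.75 for the others. With 1 lame RNA sample alone, each group held technical duplicates only.

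The median in lame minus normal crossbred arrays was -0.48 with median scaling, 0.12 with array weights and -0.13 with lame R2 alone, and leaving out 1 array gave -0.06 to 0.08. In lame minus Tharparkar arrays it was -0.49 with median scaling, 0.19 with the mean of probes, 0.16 with array weights, 0.18 with lame R1 alone and -0.084 with lame R2 alone, and leaving out 1 array gave 0.01 to 0.11. Signs turned for ZNF512 against Tharparkar arrays with the mean of probes (0.14), for ZNF341 with lame R1 alone against normal crossbred arrays (-0.54) and with lame R2 alone against Tharparkar arrays (1.08), and for ZNF750 against Tharparkar arrays with array weights (1.23) and lame R1 alone (1.44). Dim signal limits the 19 members above background on some arrays only.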
